A study of Sus scrofa domesticus with 12 samples.

Results

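The antioxidant and glutathione enzyme genes of injured pig muscle were described in 12 RNA-seq libraries. They were chosen by gene name: superoxide dismutases (SOD), catalase (CAT), glutathione peroxidases (GPX), peroxiredoxins (PRDX), genes whose names begin with TXN, glutathione synthesis genes, glutathione S-transferases (GST and MGST), both haem oxygenases (HMOX) and NQO1. The names matched 45 of 11506 genes. The muscle was the peroneus tertius (PT) of female Yorkshire Cross pigs, a flexor of the ankle, taken 12 weeks after surgery. In volumetric muscle loss (VML) a block of the PT was excised, and the defect was left non-repaired (2 limbs), filled with a hyaluronic acid hydrogel (Hya, labelled HA, 2 limbs) or filled with an extracellular matrix (ECM) scaffold (6 limbs). The labels call all 6 scaffolds small intestinal submucosa (SIS), whereas the study also names urinary bladder matrix (UBM), so these limbs are called ECM-repaired and the scaffolds are not told apart. In the 2 sham-operated limbs, of pigs 025 and 026, the muscle was exposed and no tissue was removed. Surgery was on both hindlimbs of a pig, so no limb had an untouched partner, and SIS-repaired limbs of the study had wound complications. The 12 limbs came from 11 pigs, since 1 limb of pig 017 was non-repaired and its other limb received Hya.

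These enzymes form linked chains that remove reactive oxygen. Superoxide dismutases turn superoxide into hydrogen peroxide: SOD1 mainly in the cytosol, SOD2 in the mitochondrial matrix and SOD3 outside the cell. Hydrogen peroxide is removed by catalase in peroxisomes, by glutathione peroxidases with electrons from glutathione, and by peroxiredoxins with electrons from thioredoxin, which thioredoxin reductases recharge. Many of the genes are known targets of the transcription factor NRF2, and skeletal muscle fibers hold abundant mitochondria with their own peroxiredoxin and dismutase.

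The values are TPM, kallisto's relative transcript levels, which are scaled for transcript length and to a common sum per library, so they can be set side by side between genes but keep no count of reads. In the labelled muscle, summed TPM of 19 muscle fiber markers (such as ACTA1 and CKM) made up 25.9 to 26.1% of the table with sham surgery and 1.65 to 12.9% in the 10 injured limbs. For 11 fibroblast markers (such as COL1A2 and COL3A1) the shares were 0.153 to 0.225% and 5.11 to 12.3%. For 11 macrophage markers (such as CD68 and CD163) they were 0.0045 to 0.00752% and 0.0868 to 0.234%, and for 11 markers of mitochondrial content (such as CS and COX5B) they were 0.95 to 1.08% and 0.215 to 0.902%. No marker in these lists was at 0 in every library. In such tissue, fewer cells of a type and less RNA per cell cannot be told apart, and the part of the markers' change in the results below was not tested. Summed erythrocyte, adipocyte and endothelial markers overlapped between sham-operated and injured limbs.

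Of the 45 genes, 40 were tested because every library of some condition reached 1 TPM, and GPX5, GSTA1, GSTA2, MGST1 and TXNDC8 were too low. Comparing the mean of the 3 injured conditions with sham (VML-injured), 17 genes were higher, 4 were lower and 19 were not called at a limma adjusted p under 0.05. Across all 8782 tested genes, 49.4% were called higher and 7.66% lower, so the members' 42.5 and 10% lay near the background. Injured and sham-operated libraries also differed in scale. The median log2 fold change was 0.73 over all tested genes and 0.47 over the members. After the libraries were rescaled by trimmed means of log ratios, the medians were 0.01 and -0.32. On that scale 10 members were higher and 11 lower, or 25 and 27.5%, against 29.0% higher and 28.0% lower over all genes. On both scales 10 members were higher and 4 lower, and no member was called in opposite directions. The other 7 that were higher as deposited were not called after rescaling, and 7 were lower only after rescaling. The sham-operated limb of pig 025 weighed on these counts: without it 10 members were higher and 2 lower as deposited. With pig 017's Hya limb left out, 17 rose and 7 fell.

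Glutathione peroxidases GPX7 and GPX1, the transferase GSTA4, extracellular SOD3, haem oxygenase HMOX1, thioredoxin TXN, peroxiredoxins PRDX4 and PRDX1 and the thioredoxin-fold gene TXNDC12 were higher in injured muscle on both scales. As deposited they were also higher with each limb left out in turn. Limbs were not left out on the rescaled values. TXNRD3, the tenth gene that was higher on both scales, lost its call as deposited without pig 025. Mitochondrial SOD2, mitochondrial PRDX3, CAT and GCLM, a subunit of the glutathione synthesis enzyme, were lower on both scales. Of these 4, SOD2 was called as deposited with each limb left out in turn and the others were not. All 10 injured limbs lay above both sham-operated limbs for 19 tested members and below both for 5, where 49.8 and 8.52% of all tested genes did so. After rescaling, which was looked at after seeing the data, they lay above both for 11 members and below both for 14, against 28.6 and 27.8% of all tested genes. In what follows, TPM and statements on whether limbs overlapped are as deposited unless rescaling is named.

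**Figure D1:**
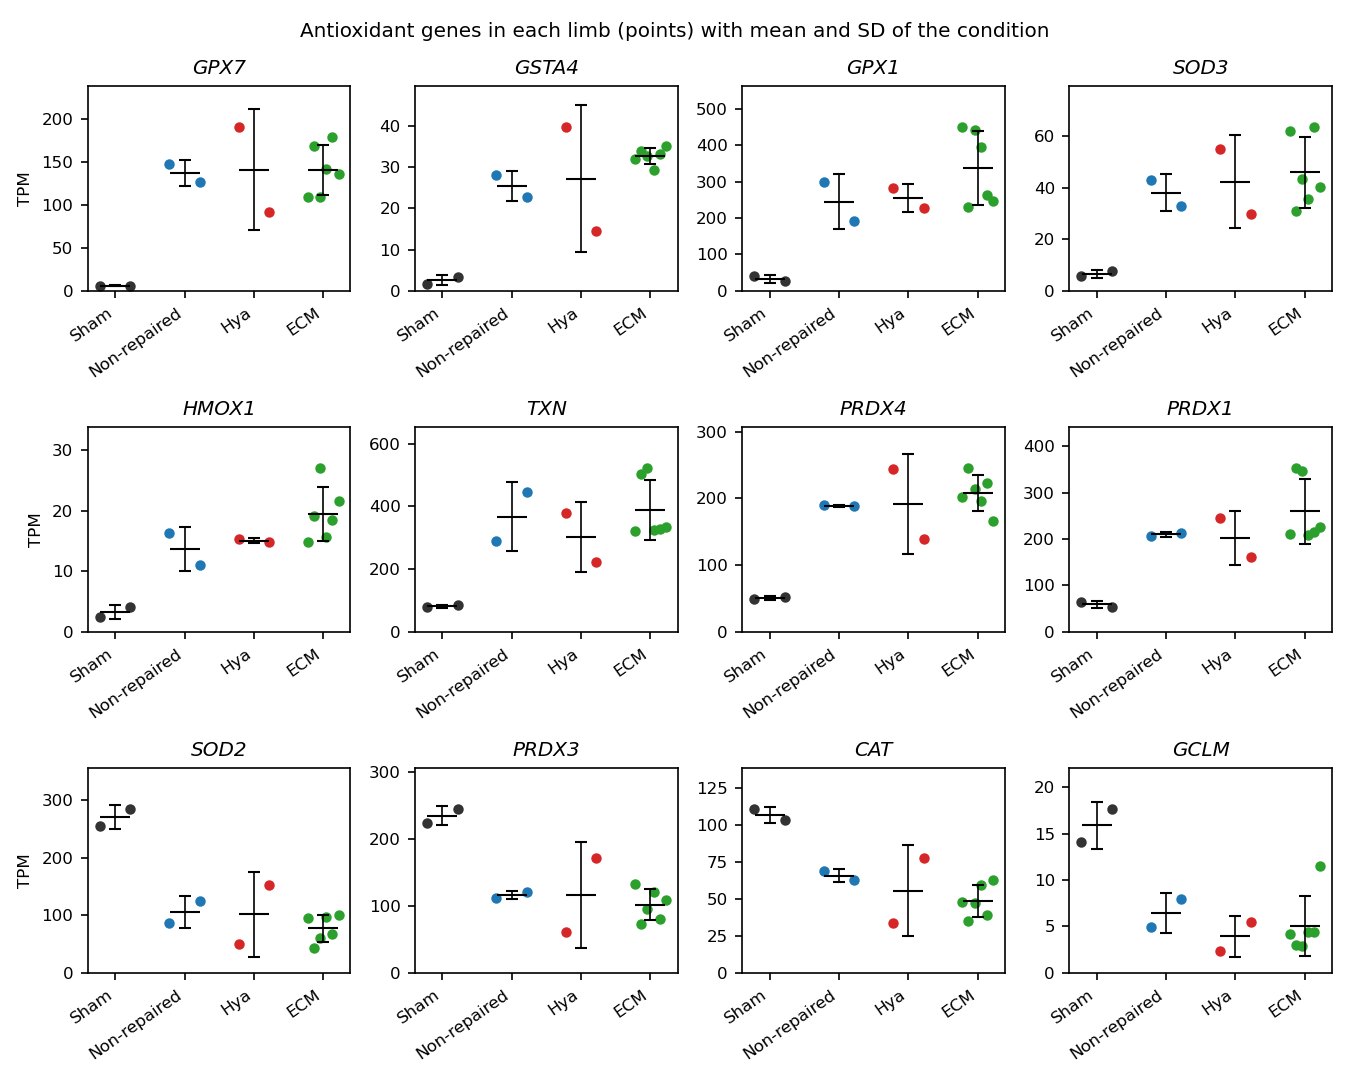
TPM (linear axis from 0) of 12 antioxidant genes in each limb by condition; points are limbs, the wide mark is the mean of the condition and the bars are 1 SD (n = 2, 2, 2 and 6). The 10 injured limbs lie above both sham-operated limbs in the first 8 panels and below both in the last 4.

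Of the superoxide dismutases, SOD3 rose, SOD2 fell and SOD1 was not called. SOD3 was at 5.50 and 7.5 TPM in the sham-operated limbs, 43.1 and 32.9 in the non-repaired limbs, 55.0 and 29.7 in the Hya-repaired limbs, and from 30.9 through a median of 41.6 to 63.5 in the ECM-repaired limbs. The groups did not overlap, and the log2 fold change was 2.57 ± 0.31 (SE, adjusted p = 2.84e-05), or 1.81 ± 0.33 after rescaling (adjusted p = 0.000871). SOD2, which was among the most abundant members in sham-operated muscle, was at 256 and 285 TPM there. It was at 85.9 and 125 in the non-repaired limbs, 49.1 and 153 in the Hya-repaired limbs, and from 43.5 through 81.3 to 100.5 in the ECM-repaired limbs. Every injured limb lay below both sham-operated limbs. The fold change was -1.62 ± 0.40 (adjusted p = 0.00441), or -2.42 ± 0.43 after rescaling (adjusted p = 0.000744). SOD1 spanned 132 to 139 TPM in the sham-operated limbs, with 151 to 193 across the injured limbs. Its values separated too, but the fold change of 0.33 ± 0.19 did not pass (adjusted p = 0.153) and was -0.47 ± 0.27 after rescaling.

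Catalase fell. It was at 111 and 103 TPM in the sham-operated limbs, 69.1 and 62.6 in the non-repaired limbs, 33.7 and 77.5 in the Hya-repaired limbs, and from 35.1 through 47.6 to 62.9 in the ECM-repaired limbs. No injured limb reached the sham values, and the log2 fold change was -0.97 ± 0.30 (adjusted p = 0.0141), or -1.77 ± 0.34 after rescaling (adjusted p = 0.00111). As deposited, the CAT call needed both sham-operated limbs: the adjusted p was 0.109 without pig 025 and 0.0636 without pig 026.

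Among the glutathione peroxidases 3 of 5 tested genes were higher as deposited and none was lower. GPX7, which works in the endoplasmic reticulum, had the largest fold change of all the members. It was at 5.13 and 5.96 TPM in the sham-operated limbs, 147 and 126 in the non-repaired limbs, 190.5 and 91.1 in the Hya-repaired limbs, and from 109 through 138 to 178 in the ECM-repaired limbs. The lowest injured limb was far above both sham-operated limbs, and the log2 fold change was 4.49 ± 0.28 (adjusted p = 3.84e-07), or 3.74 ± 0.28 after rescaling (adjusted p = 5.74e-06). GPX1, the widespread cytosolic selenoenzyme, rose from 39.1 and 25.2 TPM in the sham-operated limbs to 299.9 and 191 in the non-repaired limbs and 283 and 227 in the Hya-repaired limbs, and spanned 229 to 451 around a median of 329 in the ECM-repaired limbs. These ranges were far apart, with a log2 fold change of 3.08 ± 0.32 (adjusted p = 9.96e-06), or 2.29 ± 0.43 after rescaling (adjusted p = 0.00107).

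GPX4, which reduces lipid peroxides in membranes, was at 113 and 150.5 TPM in the sham-operated limbs, with 205 to 431 across the injured limbs. Its log2 fold change of 1.22 ± 0.27 passed as deposited (adjusted p = 0.00228) and not after rescaling (0.42 ± 0.39, adjusted p = 0.375) or without pig 025 (1.02, adjusted p = 0.0578). GPX3, the secreted form, was at 28.9 and 37.3 TPM in the sham-operated limbs. In the injured limbs it ran from 2.94 in the Hya-repaired limb of pig 016 to 32.2 in the Hya-repaired limb of pig 017. The injured limbs overlapped the sham range, and the fold change of -1.18 ± 0.75 did not pass (adjusted p = 0.196). After rescaling all 10 injured limbs were below both sham-operated limbs, and the fold change of -1.96 ± 0.80 did not pass either (adjusted p = 0.0544). GPX2 was at 14.8 TPM in pig 025 and 0.308 in pig 026, with 0.146 to 4.24 in the injured limbs. Its fold change of -1.09 ± 1.02 did not pass and was 1.03 without pig 025, so 1 limb set its direction.

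The 6 peroxiredoxins divided. PRDX4, the form of the endoplasmic reticulum, and cytosolic PRDX1 rose on both scales, mitochondrial PRDX3 fell on both scales, and PRDX5, PRDX2 and PRDX6 depended on the scale. PRDX4 was at 48.7 and 52.5 TPM in the sham-operated limbs, 189.9 and 188 in the non-repaired limbs, 245 and 138 in the Hya-repaired limbs, and from 166 through 207 to 245 in the ECM-repaired limbs. PRDX1 was at 64.6 and 53.1 TPM in the sham-operated limbs, 206 and 214 in the non-repaired limbs, 244 and 162 in the Hya-repaired limbs, and from 209 through 219 to 353 in the ECM-repaired limbs. For both, every injured limb was above the higher sham-operated limb, by more than 2-fold as deposited and by less after rescaling, where the lowest injured limb was at 104 against 85.3 for PRDX4 and 140.5 against 113 for PRDX1. The log2 fold change was 1.92 ± 0.23 for PRDX4 (adjusted p = 3.08e-05), or 1.13 ± 0.32 after rescaling (adjusted p = 0.00977). For PRDX1 it was 1.90 ± 0.27 (adjusted p = 0.000102), or 1.10 ± 0.37 (adjusted p = 0.0233).

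PRDX3 was at 225 and 245 TPM in the sham-operated limbs, 112 and 121 in the non-repaired limbs, 60.5 and 172 in the Hya-repaired limbs, and from 72.9 through 102.5 to 132 in the ECM-repaired limbs. All injured limbs were below both sham-operated limbs, the nearest being the Hya-repaired limb of pig 017. The log2 fold change was -1.15 ± 0.34 (adjusted p = 0.0116), or -1.95 ± 0.41 after rescaling (adjusted p = 0.00212). As deposited it did not pass without pig 025 (adjusted p = 0.0701) or without pig 026 (adjusted p = 0.0793). PRDX5, found in several compartments, had a fold change of 0.71 ± 0.23 (adjusted p = 0.0202) that was -0.08 ± 0.29 after rescaling, and did not pass without pig 025 (0.41, adjusted p = 0.306). PRDX2 and PRDX6 were not called as deposited, at -0.34 ± 0.25 and -0.44 ± 0.19, and were lower after rescaling, at -1.14 ± 0.39 and -1.24 ± 0.28 (adjusted p = 0.0244 and 0.00282).

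In the thioredoxin system, counted with TXNL1 (described further below), 2 of 7 genes were higher as deposited and none was lower. TXN, the cytosolic thioredoxin, was at 78.0 and 84.2 TPM in the sham-operated limbs, 290.0 and 445 in the non-repaired limbs, 380.0 and 222 in the Hya-repaired limbs, and from 322 through 331 to 523 in the ECM-repaired limbs. No injured limb came near the sham values. The log2 fold change was 2.07 ± 0.29 (adjusted p = 8.35e-05), or 1.27 ± 0.36 after rescaling (adjusted p = 0.0112). TXN2, its mitochondrial counterpart, was at 53.6 and 64.5 TPM in the sham-operated limbs, with 57.8 to 75.2 across the injured limbs. These ranges overlapped, and the fold change was 0.20 ± 0.19 (adjusted p = 0.373), or -0.60 ± 0.28 after rescaling.

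The reductase TXNRD3 was at 1.5 and 2.84 TPM in the sham-operated limbs, with 3.81 to 9.55 across the injured limbs. Its log2 fold change was 1.26 ± 0.34 (adjusted p = 0.00787), or 0.59 ± 0.22 after rescaling (adjusted p = 0.0369), and 0.89 without pig 025 (adjusted p = 0.149). Cytosolic TXNRD1 and mitochondrial TXNRD2 did not pass, at 0.50 ± 0.22 and 0.53 ± 0.26 (adjusted p = 0.0685 and 0.104), and both were below 0 after rescaling. TXNIP, an inhibitor of thioredoxin that responds to glucose, differed between the sham-operated limbs, with 597 TPM in pig 025 and 200.3 in pig 026. The injured limbs ran from 90.6 to 424 TPM and overlapped this range. The fold change of -0.99 ± 0.50 did not pass (adjusted p = 0.106), passed after rescaling at -1.79 ± 0.50 (adjusted p = 0.00902), and was -0.21 without pig 025 and -1.78 without pig 026.

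Of the 3 genes of glutathione synthesis, GCLM fell on both scales, GCLC was not called and GSS was higher only as deposited. GCLM, the modifier subunit of glutamate-cysteine ligase, was at 14.1 and 17.7 TPM in the sham-operated limbs, 4.90 and 7.99 in the non-repaired limbs, 2.38 and 5.51 in the Hya-repaired limbs, and from 2.86 through 4.26 to 11.5 in the ECM-repaired limbs. Each injured limb was below both sham-operated limbs, with a log2 fold change of -1.65 ± 0.44 (adjusted p = 0.00689), or -2.42 ± 0.35 after rescaling (adjusted p = 0.000217). Without pig 026 the adjusted p as deposited was 0.0674. GCLC, the catalytic subunit of the same enzyme, was at 3.55 and 5.99 TPM in the sham-operated limbs, with 3.52 to 10.7 across the injured limbs. It overlapped and was not called, at 0.37 ± 0.34 (adjusted p = 0.361), or -0.36 ± 0.22 after rescaling. GSS, which completes glutathione, was at 3.53 and 4.73 TPM against 6.50 to 12.5. Its fold change of 1.06 ± 0.28 (adjusted p = 0.00751) was 0.32 ± 0.22 after rescaling (adjusted p = 0.227), and it did not pass without pig 025 (adjusted p = 0.111). Glutathione reductase had no row under its own symbol. The row LOC396625, which the RefSeq gene table pairs with GSR and which the naming rule did not take, had a log2 fold change of 1.66 ± 0.25 (adjusted p = 0.000129), or 0.92 after rescaling (adjusted p = 0.00225).

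Among the glutathione transferases, GSTA4, which conjugates the lipid peroxidation product hydroxynonenal, rose most. It was at 1.69 and 3.37 TPM in the sham-operated limbs, 28.1 and 22.8 in the non-repaired limbs, 39.8 and 14.5 in the Hya-repaired limbs, and from 29.2 through 33.0 to 35.2 in the ECM-repaired limbs. The injured limbs were all well above both sham-operated limbs, and the log2 fold change was 3.25 ± 0.32 (adjusted p = 6.39e-06), or 2.55 ± 0.29 after rescaling (adjusted p = 4.76e-05). GSTO1 was at 25.3 and 25.5 TPM against 35.4 to 52.9. Its fold change of 0.69 ± 0.20 (adjusted p = 0.0114) was -0.10 ± 0.30 after rescaling. GSTK1, a mitochondrial and peroxisomal transferase, was not called as deposited (-0.65 ± 0.27, adjusted p = 0.0565) and was lower after rescaling (-1.45 ± 0.36, adjusted p = 0.00558). GSTZ1, MGST2 and MGST3 were not called on either scale. MGST3 was the most abundant transferase, at 132 and 151 TPM in the sham-operated limbs, with 162 to 281 across the injured limbs, with a fold change of 0.43 ± 0.23 (adjusted p = 0.128) that was -0.37 ± 0.33 after rescaling. Of 2 further transferase rows that the RefSeq gene table names and the rule did not take, LOC100153094 (GSTT1 as a synonym) was higher at 3.08 ± 0.30 (adjusted p = 6.81e-06) and LOC100514231 (GSTM3) was not called at 1.69 ± 0.72 (adjusted p = 0.0635).

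HMOX1, the inducible enzyme that opens the haem ring, was at 2.41 and 4.08 TPM in the sham-operated limbs, 16.3 and 11 in the non-repaired limbs, 15.3 and 14.8 in the Hya-repaired limbs, and from 14.9 through 18.8 to 27.1 in the ECM-repaired limbs. No injured limb came near the sham range, and the log2 fold change was 2.15 ± 0.27 (adjusted p = 3.87e-05), or 1.43 ± 0.28 after rescaling (adjusted p = 0.00132). HMOX2, the constitutive form, was at 15.7 and 25 TPM against 30.2 to 45.2. Its fold change of 0.92 ± 0.21 (adjusted p = 0.0031) was 0.13 ± 0.19 after rescaling, and it did not pass without pig 025 (0.59, adjusted p = 0.109). NQO1, a quinone reductase and a classical NRF2 target, was at 13 and 14 TPM in the sham-operated limbs, with 9.78 to 17.3 across the injured limbs. The injured limbs lay on both sides of the sham values, with a fold change of -0.09 ± 0.24 (adjusted p = 0.759), and was lower after rescaling (-0.87 ± 0.26, adjusted p = 0.0131).

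The remaining genes with a TXN name include chaperones and spliceosome components as well as redox proteins. TXNDC12, a thioredoxin-fold protein of the endoplasmic reticulum, was at 16.2 and 13.7 TPM in the sham-operated limbs, 56.3 and 44.1 in the non-repaired limbs, 53.3 and 34.3 in the Hya-repaired limbs, and from 39.3 through 49.4 to 62.8 in the ECM-repaired limbs. It was higher in every injured limb, with a log2 fold change of 1.64 ± 0.23 (adjusted p = 8.4e-05), or 0.86 ± 0.22 after rescaling (adjusted p = 0.00616). TXNDC17 was at 32.7 and 36.8 TPM against 86.3 to 184. It rose as deposited by 1.58 ± 0.26 (adjusted p = 0.00032) and did not pass after rescaling (0.79 ± 0.36, adjusted p = 0.0828). TXNL4B passed as deposited at 0.88 ± 0.31 (adjusted p = 0.0286) and not after rescaling (0.17 ± 0.22) or without pig 025 or pig 026 (adjusted p = 0.113 and 0.157). A second row that the RefSeq gene table pairs with TXNL4B, LOC100738508, was at 0.95 ± 0.39 (adjusted p = 0.0515), and reads may be divided between the pair. TXNDC9 and TXNDC15 were not called on either scale. TXNL4A, a spliceosome protein, and TXNL1, a thioredoxin-like protein of the proteasome, were not called as deposited and were lower after rescaling, at -0.80 ± 0.29 and -1.12 ± 0.25 (adjusted p = 0.0342 and 0.00303).

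**Figure D2:**
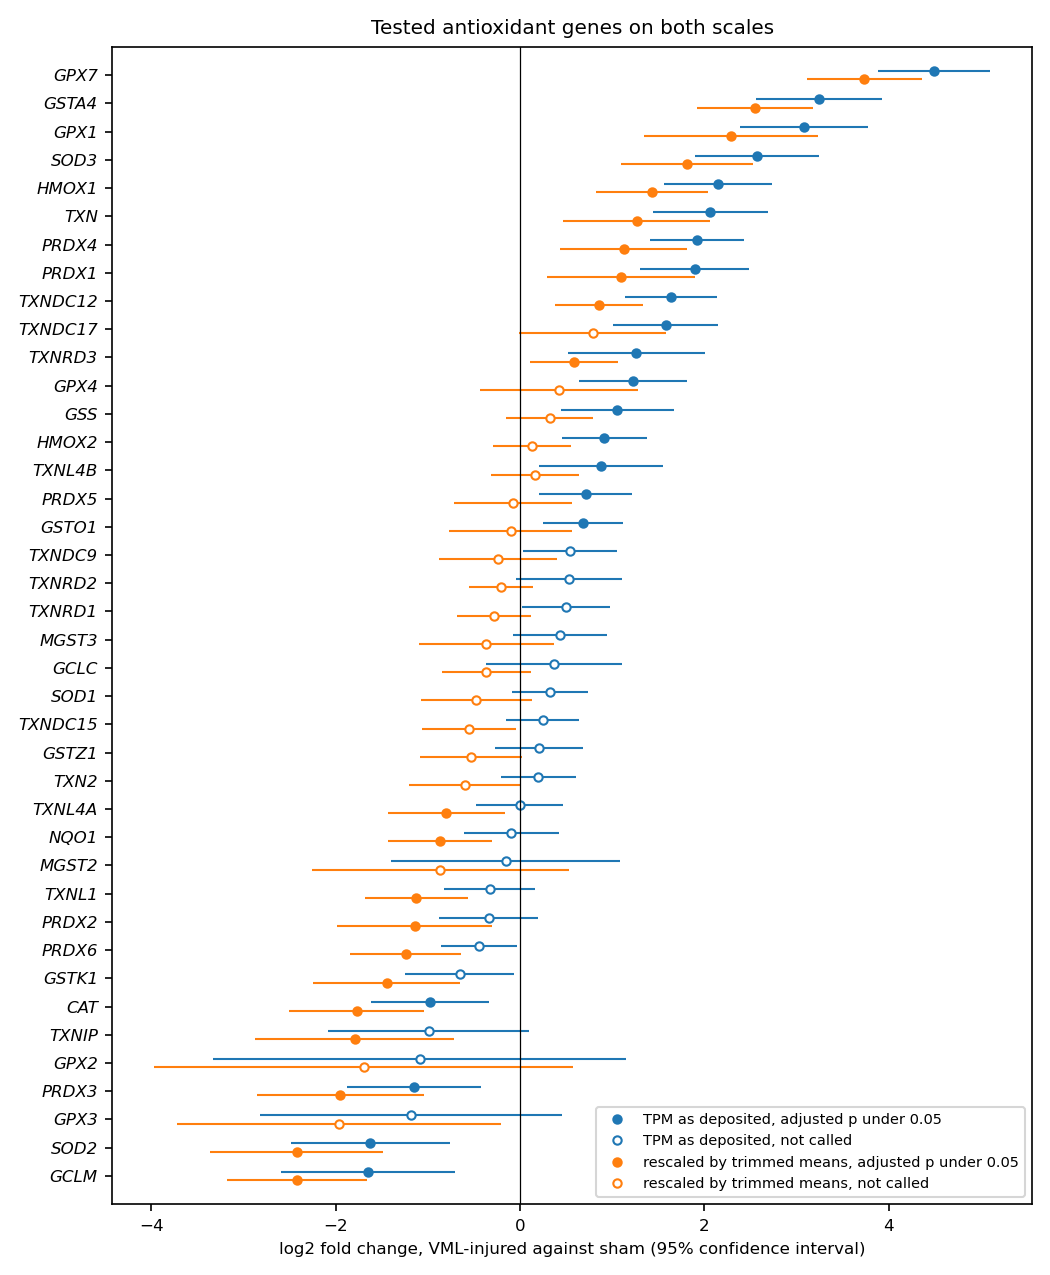
Log2 fold change of the 40 tested genes between VML-injured and sham-operated muscle (x axis), from log2(TPM + 0.5), as deposited in blue and after rescaling in orange, with 95% confidence intervals; filled points have an adjusted p under 0.05. GPX7 at 4.49 and 3.74 lies farthest to the right and GCLM and SOD2 lie lowest on both scales, at -1.65 and -1.62 as deposited and both at -2.42 after rescaling, and rescaling moves all 40 genes to the left.

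Ratios between 2 genes of the same library do not depend on the scaling of that library. The pairs were chosen after their values were seen, so they are described without a test. For SOD3 to SOD2, extracellular to mitochondrial, the ratio was 0.0215 and 0.0263 in the sham-operated limbs. In the injured limbs it ran from 0.194 in the Hya-repaired limb of pig 017, through a median of 0.574, to 1.12 in the Hya-repaired limb of pig 016. For PRDX4 to PRDX3, endoplasmic reticulum to mitochondria, it was 0.217 and 0.214 with sham surgery and from 0.805 through 1.67 to 4.04 in the injured limbs. In both ratios the extremes of the injured limbs were the same pair of Hya-repaired limbs. GPX1 to CAT went from 0.352 and 0.244 to between 2.94 and 9.43. GCLM to GCLC, the subunits of 1 enzyme, was 3.98 and 2.95 in the sham-operated limbs, with 0.462 to 1.08 across the injured limbs. No injured limb reached the sham range in any of these 4 ratios. For SOD3 to SOD2, PRDX4 to PRDX3 and GPX1 to CAT this had to be so. The limbs already separated in opposite directions for the genes of each pair. These ratios therefore add no further support. The share of all gene pairs that separate is not given here.

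**Figure D3:**
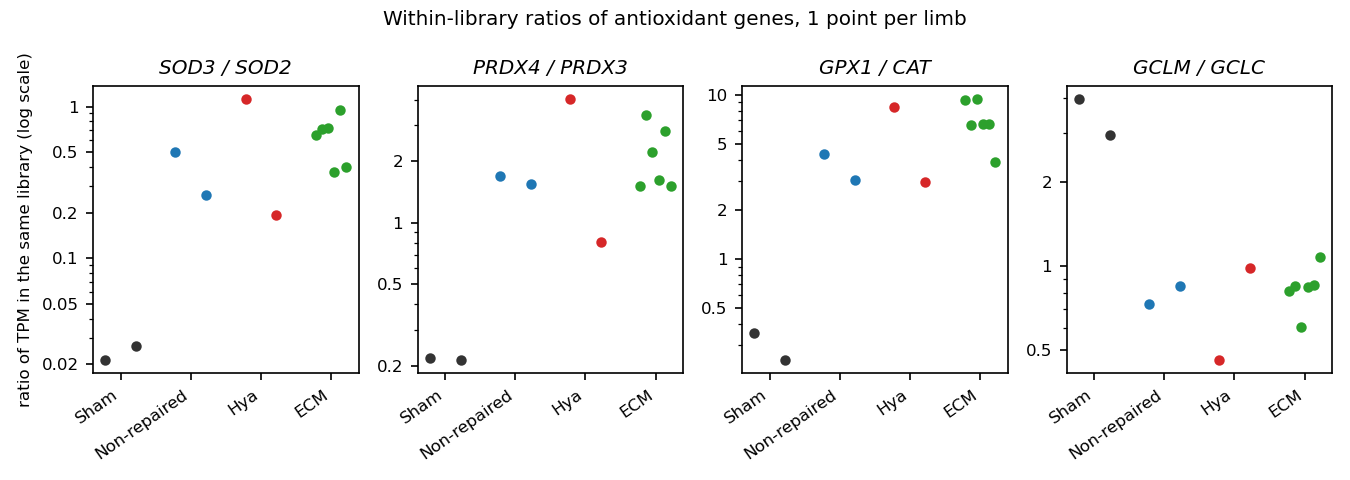
Ratio of the TPM of 2 antioxidant genes in the same library (log axis), 1 point per limb, by condition. The sham-operated limbs lie below all 10 injured limbs for SOD3 / SOD2, PRDX4 / PRDX3 and GPX1 / CAT, and above all 10 for GCLM / GCLC.

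The Hya-repaired limbs differed widely in the same genes. In pig 016 muscle fiber markers made up 1.92% of the table and in pig 017 they made up 12.9%, the highest share among the injured limbs. Markers of mitochondrial content made up 0.215 and 0.902%. SOD2 was at 49.1 and 153 TPM, PRDX3 at 60.5 and 172, and CAT at 33.7 and 77.5 in these limbs, each higher in pig 017. GPX7 was at 190.5 and 91.1 TPM, GSTA4 at 39.8 and 14.5, and PRDX4 at 245 and 138, each higher in pig 016. In the ECM-repaired limb of pig 014, which had the lowest fiber share of all (1.65%), SOD2 was at its lowest, 43.5 TPM. Whether the fiber share accounts for these differences was not tested.

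Set against sham one condition at a time, ECM-repaired limbs had 18 higher and 6 lower members (48.0% higher and 10% lower over all genes). In the non-repaired limbs 15 were higher and 1 lower (45.1 and 1.18%), and in the Hya-repaired limbs 14 were higher and 4 lower (33.9 and 3.76%). After rescaling, lower calls were at least as many as higher ones: 11 were higher and 12 lower with ECM (29.5 and 29.4% of all genes), 6 and 10 without repair (22.1 and 20.8%) and 7 and 7 with Hya (23.4 and 19.2%). The 3 comparisons share the 2 sham-operated limbs. GPX7 had log2 fold changes of 4.52 in ECM-repaired, 4.50 in non-repaired and 4.46 in Hya-repaired limbs. For SOD2 they were -1.86, -1.38 and -1.63, each past the threshold. For GCLM they were -1.70, -1.27 and -1.97, of which the non-repaired value did not pass (adjusted p = 0.0749). As deposited, single limbs decided the lower calls of these small conditions. The non-repaired condition had 0 lower members without either of its own limbs, without either sham-operated limb or without the ECM-repaired limb of pig 022, which shares in the estimate of the spread. The Hya-repaired condition had 0 lower members without pig 016 or pig 025 and 7 without pig 017's Hya limb. For ECM repair, 11 members rose and 2 fell without pig 025.

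No member was called between the injured conditions. ECM repair was set against injury without ECM (non-repaired and Hya-repaired with equal weight), against non-repaired and against Hya-repaired limbs, and Hya repair was set against no repair. As deposited, 0% of all tested genes were called by limma in each of the 4 comparisons, and no member had an unadjusted p under 0.05. Of all 8782 tested genes 114, 71, 206 and 196 did, so 0 of 40 members lay near the background. After rescaling no gene was called either. Between ECM-repaired and non-repaired limbs 1 member then had an unadjusted limma p under 0.05, and 119 of all genes did. In the other comparisons no member did. Between ECM-repaired limbs and injured limbs without ECM, the largest difference was in HMOX1, at 0.41 with a 95% interval of -0.07 to 0.89. The lowest was in SOD2, at -0.36 with an interval of -1.06 to 0.35. For 36 of the 40 members this interval lay within 2-fold either way, and for GPX2, GPX3, MGST2 and SOD2 it reached beyond. Between Hya-repaired and non-repaired limbs, with 2 limbs each, the interval lay within 2-fold for 25 members, so differences of that size cannot be set aside for the other 15.

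**Figure D4:**
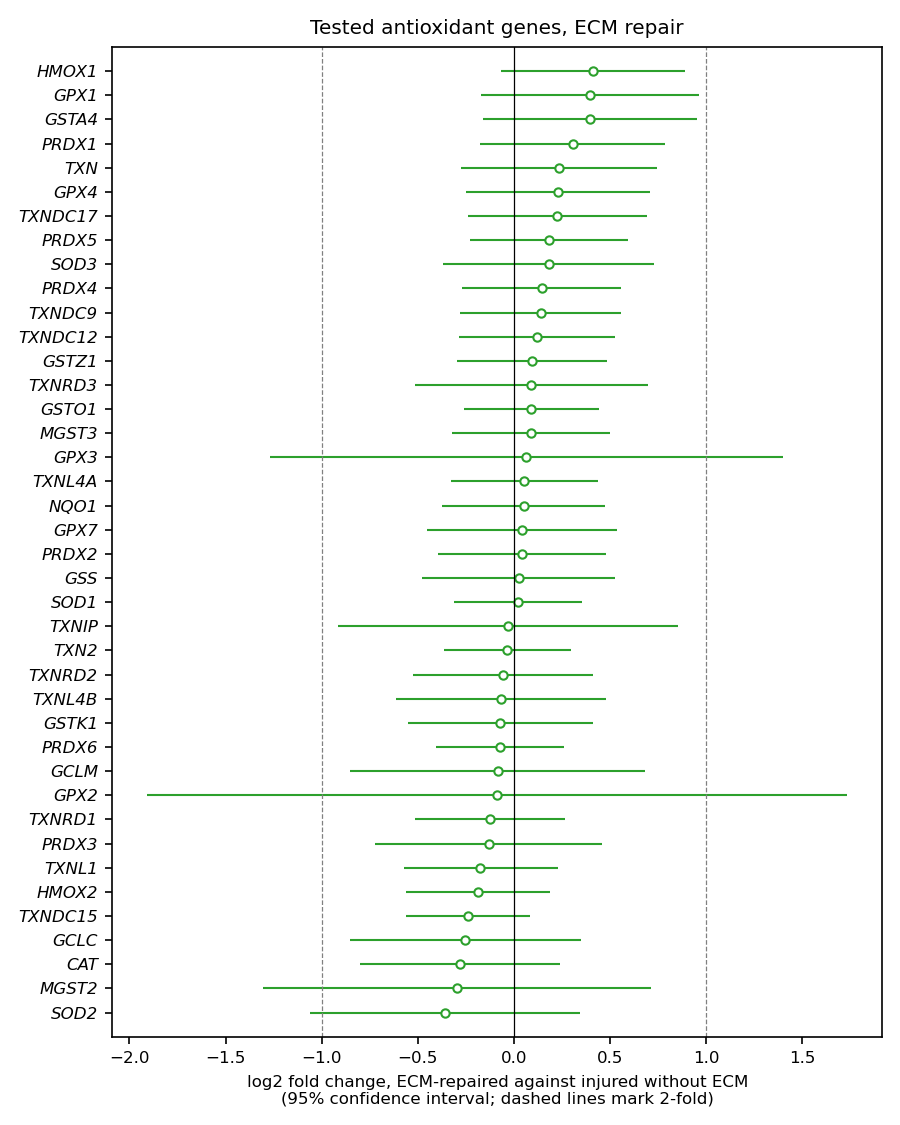
Log2 fold change of the 40 tested genes in ECM-repaired limbs (n = 6) against the mean of non-repaired and Hya-repaired limbs (n = 2 each), with 95% confidence intervals; dashed lines mark 2-fold. The points lie between -0.36 (SOD2) and 0.41 (HMOX1), and none passed the adjusted threshold.

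Genes around these enzymes were read from lists of known function. Their counts stand beside 49.4% higher and 7.66% lower of all tested genes as deposited, and 29.0 and 28.0% after rescaling. In several lists some higher genes were tested only because injured limbs reached 1 TPM, which favors higher calls. The same filter applied to all tested genes. Of 5 tested NRF2 regulators none was called as deposited, and 3 were lower after rescaling. NFE2L2, which encodes NRF2, was not called on either scale (0.59 ± 0.39, adjusted p = 0.217, or -0.21 ± 0.26, adjusted p = 0.524). KEAP1, its inhibitor, was at -0.61 ± 0.29 (adjusted p = 0.0857), and was lower after rescaling at -1.41 ± 0.21 (adjusted p = 0.000297). Of 10 tested NRF2 targets outside the members 5 were higher and 1 lower. The pentose phosphate enzymes PGD, TKT and TALDO1 rose by 2.42 ± 0.27, 2.69 ± 0.31 and 1.97 ± 0.28 (adjusted p = 1.61e-05, 1.86e-05 and 8.2e-05). SLC3A2, a chain of the cystine transporter, was at -0.05 ± 0.26 and was not called, but was lower after rescaling (-0.84 ± 0.24, adjusted p = 0.0107). After rescaling 5 of the 10 were higher and 5 lower.

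Of 8 tested sources of reactive oxygen, 6 were higher and 1 lower on either scale, and the median of their log2 fold changes was 2.04 (as deposited). Monoamine oxidase MAOA was at 1.87 ± 0.21 and the phagocyte oxidase subunit NCF4 at 3.17 ± 0.25, in limbs that also had higher macrophage markers. NCF4 spanned 0.479 to 1.09 TPM in the sham-operated limbs. It and other higher genes of this list were tested only because injured limbs reached 1 TPM. The lower gene was the other monoamine oxidase, MAOB. It was at -1.37 ± 0.43 (adjusted p = 0.0162), or -2.10 ± 0.42 after rescaling (adjusted p = 0.00146). Of 7 tested iron and haem genes 6 were higher and 1 lower (4 and 1 after rescaling). Among the higher were the ferritin light chain FTL (2.73 ± 0.37, adjusted p = 5.93e-05) and the haemoglobin receptor CD163 (2.68 ± 0.27). The ferritin heavy chain FTH1 (0.89 ± 0.28, adjusted p = 0.0166) and the biliverdin reductase BLVRA (0.83 ± 0.23, adjusted p = 0.00912) were higher as deposited. Neither was called after rescaling (0.08 ± 0.43, adjusted p = 0.88, and 0.06 ± 0.28, adjusted p = 0.879). HBB, the main erythrocyte marker measured, was at 15.7 and 79.6 TPM in the sham-operated limbs, with 12.5 to 376 across the injured limbs.

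Of 15 tested genes of glutathione use and glutaredoxins, 8 were higher and 1 lower as deposited, and 5 and 4 after rescaling. CNDP2, a peptidase that splits cysteinylglycine, was at 2.70 ± 0.25 (adjusted p = 4.47e-06), the aminopeptidase ANPEP at 3.24 ± 0.42 (adjusted p = 4.69e-05) and the glutathione hydrolase GGT1 at 1.34 ± 0.27 (adjusted p = 0.00116). Of 10 tested selenoprotein genes 6 were higher and none lower, and 4 and 1 after rescaling. SELM, of the endoplasmic reticulum, was at 4.51 ± 0.39 and the selenium carrier SEPP1 at 2.30 ± 0.26, whereas muscle-rich SEPW1 was at -0.07 ± 0.29 (adjusted p = 0.848). A mixed list held other genes of peroxide handling and of oxidised-protein repair, and 11 of them were tested. Of these, 2 were higher (MSRA at 0.84 ± 0.23 and CCS at 0.67 ± 0.20) and none lower. After rescaling none was higher, MSRA and CCS included, and 7 were lower. No metallothionein was tested.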

How the data were processed

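The authors made TruSeq libraries, sequenced them as paired ends of 76 bases and estimated transcript levels with kallisto (version not given in the sources used here); the deposited TPM were used unchanged as the main scale. The study gives an average depth, but TPM keep no read counts. The depth of each library is therefore unknown, and the number of limbs limits precision. The table holds 71.5 to 82.7% of a library's full TPM; 239 of its genes were at 0 throughout and 21 names had been turned into dates. Genes were tested (8782) where every library of some condition reached 1 TPM. A single fit of log2(TPM + 0.5) to the 12 libraries (limma 3.58.1 with trend and robust estimation, R 4.3.3) gave p-values, adjusted over all tested genes by Benjamini-Hochberg and called under 0.05. Fold changes are on that scale and understate changes of low genes. VML-injured is the mean of the 3 injured conditions with equal weight. Rescaled values were divided by a factor per library from log ratios trimmed by 30% and abundance by 5%. The fit was tested on simulated data. The members and lists were chosen with earlier results of these data known. Every member could be named. From the pathway lists it was the first 3 genes and the 3 with the smallest p, and from marker lists the first 2. MAOB was named besides, as the counterpart of MAOA. The alternatives were pseudocounts, scalings, filters, limma settings, samples in the fit, a 2-fold threshold and limbs left out. The limbs came from separate pigs except those of pig 017, whose shared origin was not modelled.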

Additional observations from a re-analysis of the deposited data

Results flagged for a closer look

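In the 6 ECM-repaired limbs, 3 of 40 tested members had 1 limb far from the others by Dixon's ratio (past its 95% critical value), and each time it was the limb of pig 024. GCLC was at 10.7 TPM there and at 3.52 to 5.24 in the other 5 limbs. GCLM was at 11.5 TPM against 2.86 to 4.42. The reductase TXNRD1 was at 36.7 TPM against 23.1 to 27.3. Chance alone marks about 1 in 20 genes, and genes of 1 limb are not independent. The share of all tested genes past the critical value is not given here, so 3 of 40 is not read as an excess. NFE2L2, which encodes NRF2, was at 107 TPM in this limb and at 26.3 to 57.0 in the other ECM-repaired limbs. The same library had the largest rescaling factor of the 12, 1.6. After rescaling, an alternative chosen after seeing the data, the ratios for GCLC, GCLM and TXNRD1 were 0.346, 0.538 and 0.368, none past the critical value, with GCLM at 7.19 against 2.99 to 4.52. On that scale HMOX2 was the 1 member past it, again in pig 024, with 23.6 TPM against 33.0 to 35.7. Whether the library's scale accounts for the high values was not tested.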

How the results depend on the processing

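Conditions of 2 limbs and an unknown depth of each library limit these counts. The counts moved with the scale and with single sham-operated and injured limbs. No paired analysis was possible because the labels give no replicate numbers shared between conditions and pig 017 alone gave 2 limbs. Against sham, counts higher and lower after rescaling by trimmed means were 10 and 11 (VML-injured), 11 and 12 (ECM-repaired), 6 and 10 (non-repaired) and 7 and 7 (Hya-repaired). By median of ratios they were 10 and 11, 11 and 12, 5 and 10, and 7 and 7. Rescaled without fiber and fibroblast markers, 7 were lower in VML-injured and 3 in non-repaired limbs. Without the filter on low values, 0 were lower in non-repaired and 2 in Hya-repaired limbs; with the compared groups alone, 6 and 1; without both limbs of pig 017, 7 were lower in VML-injured and 0 in non-repaired limbs. Leaving out each limb gave 10 to 18 higher and 2 to 7 lower (VML-injured), 11 to 18 and 2 to 6 (ECM-repaired), 10 to 16 and 0 to 3 (non-repaired) and 10 to 15 and 0 to 7 (Hya-repaired); the lowest VML-injured counts came without pig 025. Between injured conditions 0 members were called under every alternative run.

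Fold changes changed sign under trimmed means and median of ratios for GCLC (-0.36, -0.38), GSTO1 (-0.10, -0.12), GSTZ1 (-0.53, -0.54), MGST3 (-0.37, -0.38), PRDX5 (-0.08, -0.09), SOD1 (-0.47, -0.49), TXN2 (-0.60, -0.61), TXNDC15 (-0.55, -0.56), TXNDC9 (-0.24, -0.25), TXNRD1 (-0.28, -0.30) and TXNRD2 (-0.21, -0.22). Without fiber and fibroblast markers GSTZ1 (-0.07), TXN2 (-0.10) and TXNDC15 (-0.05) also did. GPX2 was at 1.03 and MGST2 at 0.52 without pig 025 (-3.21 and -0.83 without pig 026); without pig 017 NQO1 was at 0.01. TXNL4A, close to 0 as deposited, ran from -0.10 to 0.10 with limbs left out. The cause of these sign changes was not tested; rescaling lowered the fold change of all 40 members.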
